A study of Homo sapiens with 24 samples.

Results

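The genes described here were the 8 metallothionein genes MT1A, MT1E, MT1F, MT1G, MT1H, MT1M, MT1X and MT2A, taken by symbol from the 28277 genes listed in each of 2 RNA-seq count tables. All 8 were listed in both tables, and they were followed over all 8 groups of cells in the series. Metallothioneins are small proteins rich in cysteine that bind zinc, copper and cadmium and buffer zinc inside the cell. Their genes are known for rising when free zinc or other metals rise, through the zinc-sensing transcription factor MTF1, which binds metal response elements in their promoters. Glucocorticoids and oxidative stress also induce some of them. In cancer cells they are known as proteins that can bind platinum drugs such as cisplatin.

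The cells were PEO1 and PEO4, a pair of established lines of human ovarian adenocarcinoma, of which PEO4 serves in the study as the cisplatin-resistant counterpart. PEO1 A and PEO4 A, both given as WT by the labels and untreated, formed the first table of 6 libraries. PEO1 B, given as BRCA2+, and PEO4 B, given as WT, formed the second table of 18 libraries, in which cells were untreated or received PDS at 5 µM for 2 or 6 hours. PDS is pyridostatin, a small molecule that binds G-quadruplexes, the folded structures of guanine-rich DNA. The study describes the original PEO1 as carrying a nonsense mutation that impairs BRCA2, and PEO4 as carrying a reversion that restores the reading frame. PEO1 A, not labeled BRCA2+, is taken here as that BRCA2-impaired line, so the A lines differ in BRCA2 status despite the label WT. PEO1 B is described as PEO1 cells with a spontaneous reversion that restores BRCA2 function. The BRCA2-impaired PEO1 with its matching PEO4 grew with added pyruvate. Each group had 3 libraries. The untreated libraries carry no mention of a solvent, each cell type is 1 line, and the labels number the replicates without describing them. The study calls its expression replicates biological but does not describe how they were grown apart, so p-values measure the spread between these libraries.

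Totals ran from 32528913 to 63882077 counts in the first table. In the second table they ran from 18699929 to 22375644 in untreated cells and from 33260167 to 43713947 in PDS-treated cells. Ribosomal RNA genes took 0.217% to 0.474% of counts in the untreated libraries of the second table and 0.0163% to 0.0369% in the PDS libraries, so library preparation and treatment cannot be told apart there. No replicates looked like copies of 1 library, the smallest chi-square per degree of freedom between replicates being 2.13. Ovarian carcinoma markers were abundant, with a summed level of 4272 to 14043 CPM (counts scaled to a common library size) over 8 genes. Of the 3 leukocyte markers CD3E was at 0 in every library and PTPRC at or near 0, and the sum of 22.8 to 78.2 CPM came almost entirely from CD68. The 2 endothelial markers summed to 0.061 to 2.72 CPM. The 4 fibroblast markers summed to 29.7 to 32.8 CPM in PEO1 A, 5.70 to 10.8 in PEO4 A, 19.99 to 36.4 in untreated PEO4 B and 2.67 to 7.44 in PDS-treated PEO4 B, against 2.61 to 6.73 in PEO1 B. In the first table the sum came almost entirely from COL1A1, with means of 30.5 CPM in PEO1 A and 8.70 in PEO4 A. The part of these markers in the results was not tested. In bulk RNA, fewer cells of a type and less RNA per cell cannot be told apart.

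All 8 genes lie within 75.6 kb of chromosome 16 (GRCh38/hg38, chr16:56608584-56684196). MT2A lies first and MT1X last, 7 genes are on the plus strand, and MT1G is on the minus strand. Because PDS binds G-quadruplexes and MTF1 binds metal response elements, the 250 bases before the start site are shown for the 3 members with a promoter in the RefSeq table (GRCh38.p14). MT2A is the most abundant member, MT1X rose strongly in PEO1 B and MT1H was close to undetected. Capitals mark matches to the metal response element core, searched as TGCACNC and TGCGCNC on both strands, and no match overlapped another. The regions are chr16:56608334-56608583 for MT2A, chr16:56682220-56682469 for MT1X and chr16:56669564-56669813 for MT1H, all on the plus strand.
MT2A: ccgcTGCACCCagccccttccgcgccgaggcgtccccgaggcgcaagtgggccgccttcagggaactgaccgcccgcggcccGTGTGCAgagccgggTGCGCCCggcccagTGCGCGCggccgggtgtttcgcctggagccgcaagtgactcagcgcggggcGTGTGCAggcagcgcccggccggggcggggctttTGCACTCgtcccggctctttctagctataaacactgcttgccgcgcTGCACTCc
MT1X: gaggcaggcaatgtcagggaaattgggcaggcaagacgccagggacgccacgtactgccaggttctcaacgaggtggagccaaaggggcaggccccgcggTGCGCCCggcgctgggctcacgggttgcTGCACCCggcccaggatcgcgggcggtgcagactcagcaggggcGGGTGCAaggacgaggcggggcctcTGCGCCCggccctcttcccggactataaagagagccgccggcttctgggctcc
MT1H: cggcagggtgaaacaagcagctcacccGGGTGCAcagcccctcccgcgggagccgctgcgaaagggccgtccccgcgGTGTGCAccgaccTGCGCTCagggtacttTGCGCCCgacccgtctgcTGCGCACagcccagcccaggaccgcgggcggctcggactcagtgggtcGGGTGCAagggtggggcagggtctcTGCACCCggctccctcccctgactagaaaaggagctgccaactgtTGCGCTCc
MT2A held 7 matches, MT1X 4 and MT1H 8. At least 1 match was present in 24.8% of the 35116 promoters of the same length, at least 4 in 0.370%, at least 7 in 0.0313% and at least 8 in 0.0171%. In all 3 a match starts close to the gene, at -54 in MT2A and at -53 in both MT1X and MT1H, counting -1 as the base before the start site. In MT2A and MT1H another match lies closer still, starting at -8. A G-quadruplex pattern of 4 runs of at least 3 G with loops of 1 to 7 bases, searched on both strands, was found in MT1H and not in MT2A or MT1X, and in 23.45% of all promoters.

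The transcripts are short and alike, which bears on how reads can be assigned. The canonical transcripts measure 396 to 746 bases, and identity between members ran from 41.75% to 87.8%. Of 50-base windows, 5.76% (MT1A) to 51.0% (MT1X) also occur in another transcript. At 100 bases, shorter than the 150-base reads, sharing remained in MT1E (4.33%), MT1H (3.36%) and MT1X (22.0%). For MT1X the other 100-base copies were in a GENCODE long noncoding RNA that holds the same stretches, and for MT1E they were in MT1JP and MT1M. Values of MT1X, MT1E and MT1H are therefore less certain than those of the others.

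Metallothionein RNA in these cells was mostly MT2A with MT1E in the second place. In untreated PEO1 B, MT2A was at 948, 849 and 919 CPM and MT1E at 253, 244 and 219. The 8 genes together took 0.128% ± 0.00532 (SD, n = 3) of counts in untreated PEO1 B and 0.106% ± 0.0185 in untreated PEO4 B. In PEO1 A and PEO4 A they took 0.123% ± 0.00370 and 0.0837% ± 0.0205. Levels of different genes are compared here as CPM per kb of transcript. On that scale the order in untreated PEO1 B was MT2A at 2257 ± 127, MT1E at 320 ± 23.7, MT1X at 56.5 ± 8.91, MT1M at 46.3 ± 4.85, MT1F at 18.7 ± 1.43, MT1A at 12.8 ± 1.67, MT1G at 3.23 ± 0.578 and MT1H at 0.264 ± 0.0854. No 2 neighbors in that order overlapped between libraries. Untreated PEO4 B kept MT2A (2128 ± 442), MT1E (139 ± 11.8) and MT1X (46.1 ± 2.87) as the top 3. Below them, MT1F overlapped with MT1M, and MT1A with MT1G. MT1M took the third place in PEO1 A at 89.1 ± 6.11 CPM per kb and the sixth in PEO4 A at 7.41 ± 4.44, where it overlapped with MT1A.

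**Figure D1:**
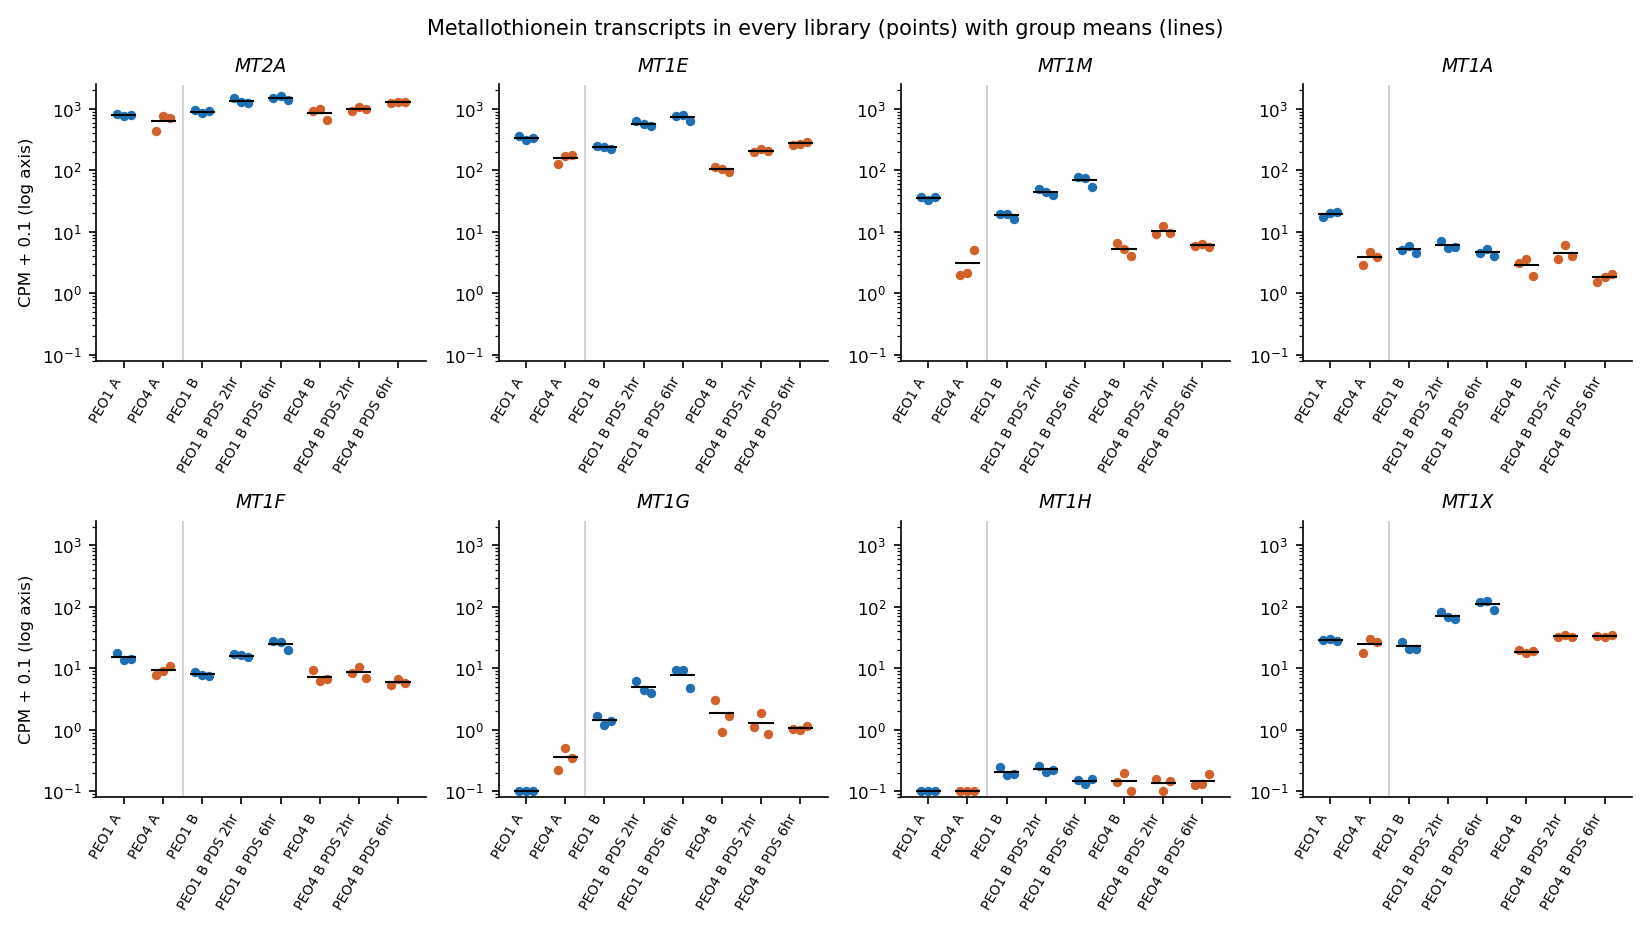
Level of each metallothionein in every library, as CPM + 0.1 on a log axis, for the 8 groups along the horizontal axis (blue, PEO1; orange, PEO4; points, libraries; lines, means of 3; the grey line parts the 2 tables, which were normalized separately). MT2A is the highest in every group, at 435 to 1596 CPM. MT1E, MT1X, MT1M, MT1F and MT1G climb in PEO1 B with PDS, and MT1H stays at the bottom.

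The first question was how the genes responded to PDS in the drug-sensitive background. In PEO1 B, 5 of the 7 tested members were called higher after 2 hours and the same 5 after 6 hours, namely MT1E, MT1F, MT1G, MT1M and MT1X. A gene is called where edgeR's quasi-likelihood test gives an adjusted p below 0.05 and the log2 fold change exceeds 1 in size, and it is said to have risen or fallen where the adjusted p alone passes. Of all 17020 genes tested, 1.18% were called higher at 2 hours and 1.29% at 6 hours. By adjusted p alone 6 of 7 members rose at each time, against 26.4% and 27.0% of all genes. The median log2 fold change of the tested members was 1.27 and 1.64, and that of all genes -0.03 and -0.03. MT1H was too low to test.

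MT1X, an isoform expressed in many tissues, stood at 27.0, 20.9 and 20.6 CPM untreated, at 82.4, 69.1 and 64.4 after 2 hours and at 119, 126 and 89.0 after 6 hours. The 3 groups did not overlap. Its log2 fold change was 1.66 ± 0.13 (SE) at 2 hours (edgeR adjusted p = 1.9e-08) and 2.29 ± 0.13 at 6 hours (adjusted p = 4.2e-10), or 4.88-fold. MT1G had the largest fitted change but few counts. It went from 33, 27 and 29 counts untreated to 198, 165 and 132 at 2 hours and 337, 302 and 159 at 6 hours. Every treated library lay above every untreated one, and the third library at 6 hours, at 4.67 CPM, lay well under the other two at 9.14 and 9.16. Its log2 fold change was 1.86 ± 0.40 (edgeR adjusted p = 0.0010) and then 2.54 ± 0.38 (adjusted p = 4.8e-05).

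MT1M was at 19.7, 19.4 and 16.2 CPM untreated, 49.7, 44.4 and 40.0 at 2 hours and 78.0, 74.5 and 52.6 at 6 hours. Its libraries also separated by time, with log2 fold changes of 1.28 ± 0.16 and 1.89 ± 0.16 against untreated (edgeR adjusted p = 8.0e-06 and 1.1e-07). MT1E was at 631, 568 and 531 CPM at 2 hours and at 767, 812 and 633 at 6 hours. Against the untreated libraries it rose by 1.27 ± 0.09 and 1.63 ± 0.09 on the log2 scale (edgeR adjusted p = 1.9e-10 and 6.7e-12). The third library was the lowest of its group at 6 hours for MT1E, MT1M, MT1X, MT1F, MT1G and MT2A alike.

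MT1F went from 8.63, 7.73 and 7.46 CPM to 16.7, 16.2 and 14.9 at 2 hours and 27.3, 27.0 and 19.6 at 6 hours. Its groups were apart, with log2 fold changes of 1.01 ± 0.17 and 1.64 ± 0.16 (edgeR adjusted p = 4.6e-05 and 1.0e-07). At 2 hours MT1F sat at the fold limit: it was no longer called without untreated replicate 2 (0.998), untreated replicate 3 (0.97) or PDS 2hr replicate 1 (0.98), nor with library totals (0.86) or upper-quartile scaling (0.93). MT2A, the most widely expressed human metallothionein, was at 1485, 1321 and 1245 CPM at 2 hours and at 1530, 1596 and 1407 at 6 hours, above all 3 untreated libraries. It rose by 0.58 ± 0.11 and 0.74 ± 0.11 on the log2 scale, under the fold limit (edgeR adjusted p = 0.00033 and 2.7e-05).

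MT1A was the member whose treated and untreated libraries overlapped. It was at 4.94, 5.78 and 4.48 CPM untreated, 7.11, 5.40 and 5.52 at 2 hours and 4.45, 5.18 and 3.90 at 6 hours. Its log2 fold changes were 0.24 ± 0.20 and -0.17 ± 0.20 (edgeR adjusted p = 0.32 and 0.50). Between 2 and 6 hours no member of PEO1 B was called, and MT1E (0.35 ± 0.09), MT1F (0.63 ± 0.15), MT1M (0.61 ± 0.15) and MT1X (0.63 ± 0.12) rose by adjusted p, 4 of 7 against 3.96% of all genes. Of these MT1X alone kept its adjusted p below 0.05 with any 1 library left out. MT1E, MT1F and MT1M lost it without PDS 2hr replicate 3 (0.30, 0.59 and 0.54), PDS 6hr replicate 1 (0.32, 0.55 and 0.51) or PDS 6hr replicate 2 (0.28, 0.56 and 0.55). MT1E and MT1M also lost it without PDS 2hr replicate 2 (0.35 and 0.61).

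**Figure D2:**
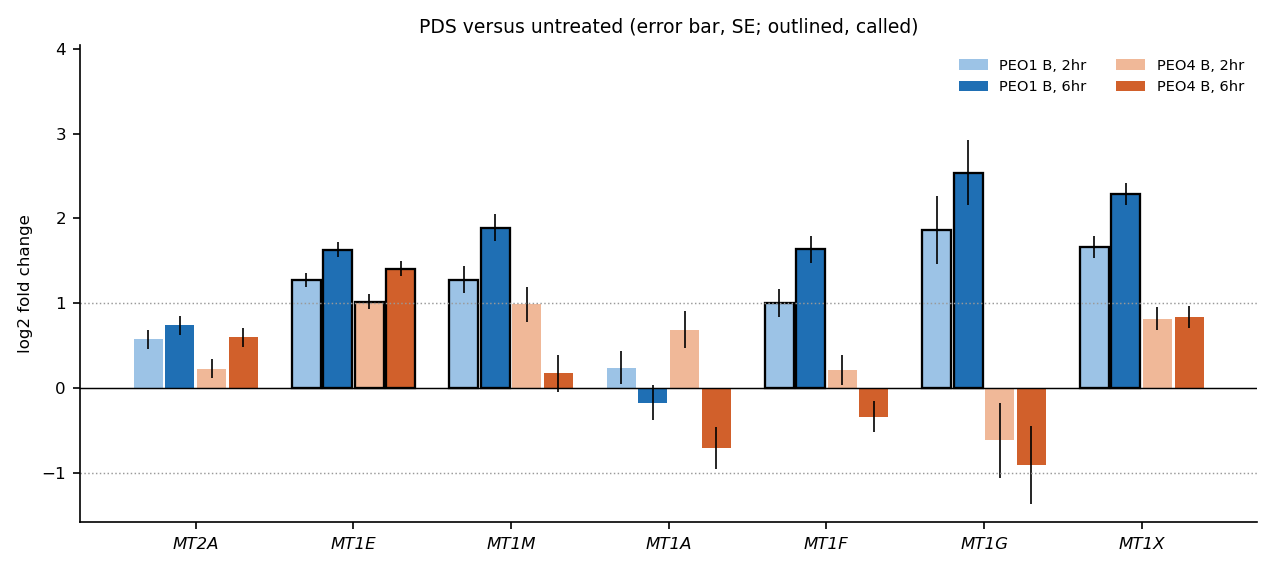
Log2 fold change of each tested metallothionein between PDS-treated and untreated cells, by line and time, with members in genomic order (bars, edgeR estimate; error bars, SE; black outline, called; dotted lines, the fold limit of 1). All PEO1 B bars but that of MT1A at 6 hours are positive and MT1X reaches 2.29 at 6 hours, whereas in PEO4 B outlined bars occur for MT1E and bars of MT1G at both times and of MT1A and MT1F at 6 hours lie below 0.

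In PEO4 B the response was smaller and mixed in direction. One member of 7, MT1E, was called higher at 2 hours and again at 6 hours, where 6.40% and 6.26% of all genes were called higher. By adjusted p, 4 of 7 rose at 2 hours (all genes, 33.3%), 3 of 7 rose at 6 hours (34.6%) and 1 of 7 fell at 6 hours (35.2%). MT1E was at 111, 105 and 94.0 CPM untreated, 197, 223 and 208 at 2 hours and 262, 274 and 288 at 6 hours, without overlap between the groups. Its log2 fold change was 1.02 ± 0.09 at 2 hours (edgeR adjusted p = 1.9e-09) and 1.41 ± 0.09 at 6 hours (adjusted p = 8.1e-12). The 2-hour call was at the limit and was lost without untreated replicate 3 (0.95) or PDS 2hr replicate 2 (0.97), with DESeq2 (0.995) and under the other scalings (0.89 to 0.995).

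MT1X reached a plateau at 2 hours in PEO4 B. It went from 19.5, 17.3 and 19.1 CPM to 31.9, 34.6 and 32.4 at 2 hours and 33.3, 32.4 and 34.6 at 6 hours. Both treated groups lay above the untreated one and overlapped with each other, with log2 fold changes of 0.82 ± 0.13 and 0.84 ± 0.13 (edgeR adjusted p = 4.2e-05 and 2.7e-05). MT2A was at 918, 990 and 653 CPM untreated, 931, 1060 and 1009 at 2 hours and 1262, 1309 and 1312 at 6 hours. Untreated replicate 3 was low, and the groups overlapped at 2 hours but not at 6. Its log2 fold change was 0.23 ± 0.11 (edgeR adjusted p = 0.080) and then 0.60 ± 0.11 (adjusted p = 0.00012). Without untreated replicate 2 the 2-hour change of MT2A was 0.35 and passed.

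MT1M and MT1A were higher at 2 hours and back at or below the untreated level at 6 hours. MT1M was at 6.36, 5.22 and 4.01 CPM untreated, 9.28, 12.5 and 9.34 at 2 hours and 5.82, 6.26 and 5.63 at 6 hours. It rose by 0.99 ± 0.20 on the log2 scale at 2 hours (edgeR adjusted p = 0.00057), and at 6 hours its change was 0.18 ± 0.22 (adjusted p = 0.48). The 2-hour change of MT1M was called without untreated replicate 1 (1.17), without PDS 2hr replicate 1 or 3 (1.06 each) and without a filter (1.01). MT1A was at 3.03, 3.47 and 1.84 CPM untreated, 3.56, 6.00 and 3.89 at 2 hours and 1.41, 1.77 and 1.98 at 6 hours. It rose by 0.69 ± 0.22 at 2 hours (edgeR adjusted p = 0.0087) and fell by 0.70 at 6 hours (SE 0.25, adjusted p = 0.015), although untreated and 6-hour libraries overlapped. Neither change of MT1A passed in every run: the first was lost without untreated replicate 3 (0.47) or PDS 2hr replicate 2 (0.43). The second was lost without untreated replicate 1 (-0.62) or 2 (-0.52) or PDS 6hr replicate 1 (-0.55).

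MT1F and MT1G, which rose in PEO1 B, did not pass in PEO4 B, although some other settings gave a pass. MT1F was at 9.22, 6.03 and 6.496 CPM untreated, 8.19, 10.4 and 6.87 at 2 hours and 5.15, 6.53 and 5.69 at 6 hours. Both treated groups overlapped with the untreated one but not with each other. The log2 fold changes of MT1F against untreated were 0.22 ± 0.17 and -0.34 ± 0.18 (edgeR adjusted p = 0.28 and 0.11), and the first passed without untreated replicate 1 (0.44). The 6-hour value of MT1F passed as a fall with library totals (-0.50), upper-quartile scaling (-0.45) and a replicate block (-0.34). MT1G had 67, 16 and 34 counts untreated, 37, 62 and 32 at 2 hours and 39, 29 and 35 at 6 hours, so its untreated libraries spread widely. Its log2 fold changes were -0.61 ± 0.44 and -0.91 ± 0.46 (edgeR adjusted p = 0.24 and 0.092). The 6-hour value of MT1G was called lower without untreated replicate 2 (-1.23) and with library totals (-1.06).

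Between 2 and 6 hours of PDS in PEO4 B, 1 of 7 members was called lower, where 9.71% of all genes were. That member was MT1A at -1.39 ± 0.22 (edgeR adjusted p = 9.3e-06). By adjusted p, MT1A, MT1M (-0.81 ± 0.19) and MT1F (-0.55 ± 0.17) fell, 3 of 7 against 31.3% of all genes. MT1E (0.39 ± 0.09) and MT2A (0.37 ± 0.11) rose, 2 of 7 against 28.9%. MT1F no longer passed without PDS 2hr replicate 2 (-0.38). The 2-hour and 6-hour comparisons share the untreated libraries, so their values are not independent of each other.

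Transcript length and the bulk of genes were set beside these values. Among the 899 other tested genes with a canonical transcript of at most 600 bases, the median log2 fold change after PDS was -0.39 and -0.30 in PEO1 B and -0.27 and -0.20 in PEO4 B at 2 and 6 hours. The 181 of these that code for protein behaved otherwise, with medians of 0.47, 0.47, 0.51 and 0.30 in the same order, and 58.6%, 58.0%, 58.0% and 53.0% of them rose. In PEO1 B 8.29% of them were called higher at each time, and in PEO4 B 17.7% and 15.5%. Relative to the median of the protein-coding group, MT1E (0.80), MT1M (0.81) and MT1F (0.54) came under the fold limit in PEO1 B at 2 hours, while MT1X (1.19) and MT1G (1.39) stayed above it. At 6 hours all 5 stayed above it, from 1.16 for MT1E to 2.07 for MT1G, and MT2A came to 0.11 and 0.27 at the 2 times. In PEO4 B, MT1E came to 0.50 and 1.11 and MT1X to 0.31 and 0.54. A call needs a log2 fold change above 1, so the 5 members called in PEO1 B lay above this median of 0.47 by construction. MT2A, which was not called, lay close to it at 2 hours. The part of transcript length in the results was not tested.

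Whether the 2 lines responded differently was tested as the difference between their fold changes. At 6 hours 4 of 7 members had a response called lower in PEO4 B than in PEO1 B (all genes, 9.34%), and at 2 hours 1 of 7 (4.92%). By adjusted p alone the counts were 4 of 7 at 6 hours (23.0%) and 3 of 7 at 2 hours (18%). At 6 hours the difference in log2 fold change, PEO4 B minus PEO1 B, was -3.45 ± 0.61 for MT1G (edgeR adjusted p = 0.00026), -1.97 ± 0.24 for MT1F (adjusted p = 2.6e-06), -1.72 ± 0.27 for MT1M (adjusted p = 0.00011) and -1.45 ± 0.18 for MT1X (adjusted p = 8.1e-06). At 2 hours it was -2.48 ± 0.60 for MT1G (edgeR adjusted p = 0.0045), -0.84 ± 0.18 for MT1X (adjusted p = 0.0019) and -0.79 ± 0.24 for MT1F (adjusted p = 0.015). MT1F at 2 hours no longer passed without PEO4 B replicate 1 (-0.58).

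MT1E, MT2A and MT1A did not pass this test. For MT1E the difference was -0.26 ± 0.12 at 2 hours and -0.22 ± 0.12 at 6 hours (edgeR adjusted p = 0.11 and 0.15). For MT2A it was -0.35 ± 0.16 and -0.14 ± 0.16 (adjusted p = 0.094 and 0.50), and for MT1A 0.45 ± 0.30 and -0.53 ± 0.32 (adjusted p = 0.25 and 0.18). Single libraries mattered here too. Without PEO4 B replicate 3, in which MT2A was low, MT2A passed at -0.51 and -0.30 and MT1A at 6 hours at -0.75. Without PEO1 B PDS 6hr replicate 3, MT1E passed at 6 hours at -0.32. The 2-hour difference of MT2A also passed with DESeq2 on all libraries (-0.37). MT1M differed between lines at 6 hours but its 2-hour difference was -0.29 ± 0.26 (adjusted p = 0.42). The short protein-coding genes had a median line difference of 0.12 at 2 hours and -0.09 at 6 hours.

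**Figure D3:**
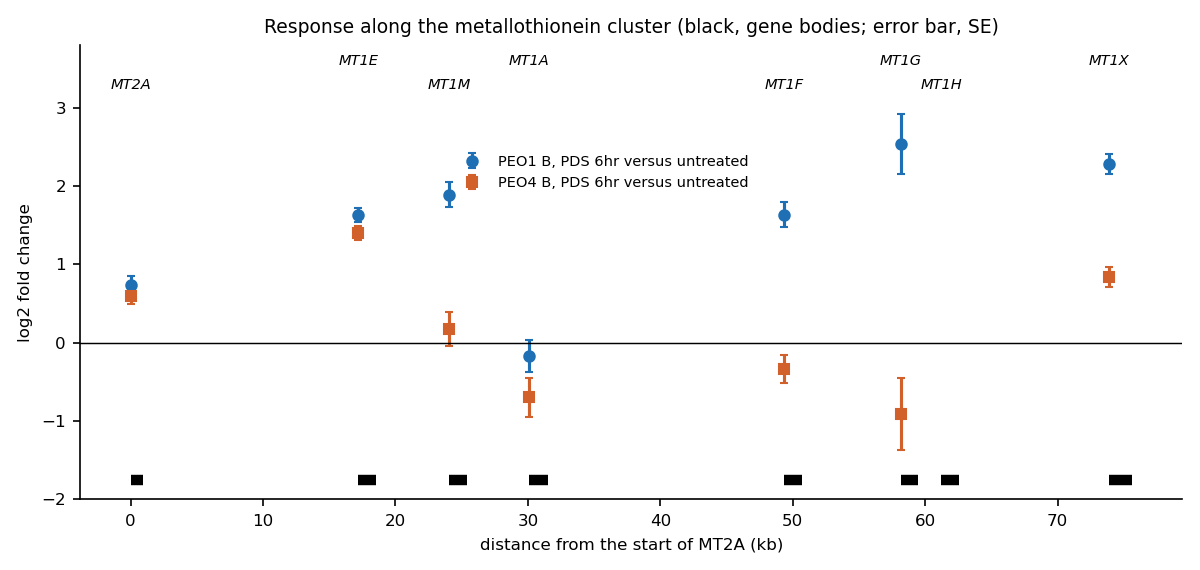
Log2 fold change at 6 hours of PDS against the distance of each gene from the start of MT2A in kb (circles, PEO1 B; squares, PEO4 B; error bars, SE; black blocks, gene bodies; MT1H was not tested). MT2A and MT1E at one end nearly coincide between lines, while MT1M, MT1F, MT1G and MT1X farther along are higher in PEO1 B.

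Along the cluster, the members with a line difference at 6 hours were MT1M, MT1F, MT1G and MT1X, starting 24075, 49375, 58146 and 73886 bases from the start of MT2A. Those without one were MT2A, MT1E at 17197 bases and MT1A at 30082 bases. MT1A, between MT1M and MT1F, was a gap in the run, with 6-hour values of -0.17 ± 0.20 in PEO1 B and -0.70 ± 0.25 in PEO4 B. Of 10 genes flanking the cluster, 8 were tested and none was called higher by PDS in either line at either time. By adjusted p, 6 of the 8 rose at 2 hours in each line, against 26.4% of all genes in PEO1 B and 33.3% in PEO4 B, with a median of 0.36 and 0.39. At 6 hours 5 rose and 1 fell in PEO1 B (all genes higher, 27.0%, median of the list 0.26), and 4 rose and 3 fell in PEO4 B (34.6% higher and 35.2% lower, median 0.04). At 6 hours GNAO1, a G protein subunit gene upstream of the cluster, was called lower in PEO4 B at -1.001 ± 0.22 (edgeR adjusted p = 0.00032). NLRC5, a regulator of MHC class I genes, fell by 1.62 between 2 and 6 hours in PEO4 B.

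The second question was how the resistant line differed from the sensitive one. Without treatment, tested metallothioneins were lower in PEO4 or did not pass, in both tables, while MT1G, too low to test in the first table, had more counts in PEO4 A. PEO4 A against PEO1 A had 3 of 6 tested members called lower (all genes, 13.1%), and untreated PEO4 B against PEO1 B had 2 of 7 (12.6%). By adjusted p alone 4 of 6 (all genes, 31.6%) and 3 of 7 (34.6%) were lower, and no tested member was called higher. After PDS the numbers were 4 of 7 at 2 hours (12.6%) and 6 of 7 at 6 hours (13.5%), and at 2 hours all 7 tested members were lower by adjusted p (35.8% of all genes). The genes flanking the cluster were lower in PEO4 as well, by adjusted p 7 of 8 in the first table (median -0.53) and 6 of 8 in untreated B cells (median -0.44). At 6 hours of PDS 7 of 8 were lower (all genes, 34.7%, median of the list -0.67), of which 3 were called. GNAO1 was called lower in PEO4 in both tables without treatment (-2.24 and -2.94). These comparisons of treated cells hold both the untreated difference and the difference in response.

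MT1M differed most. It was at 37.5, 32.7 and 36.1 CPM in PEO1 A and at 1.85, 2.01 and 4.99 in PEO4 A. The groups lay far apart, with a log2 fold change of -3.64 ± 0.36 (edgeR adjusted p = 0.00012), or 12.5-fold lower in PEO4 A. In the second table it was -1.82 ± 0.20 untreated (edgeR adjusted p = 8.8e-07), -2.11 ± 0.16 at 2 hours (adjusted p = 9.4e-09) and -3.53 ± 0.17 at 6 hours (adjusted p = 4.5e-11). MT1E was lower in PEO4 by a like amount in every setting, at -1.07 ± 0.12 in the first table (edgeR adjusted p = 9.1e-06) and -1.20 ± 0.09, -1.46 ± 0.09 and -1.42 ± 0.09 in the second (adjusted p = 7.8e-11, 1.7e-12 and 3.1e-12). In the first table MT1E was at 358, 309 and 333 CPM in PEO1 A and at 128, 173 and 176 in PEO4 A, and the call was lost without PEO4 A replicate 1 (-0.93).

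MT1A was at 17.5, 19.8 and 21.2 CPM in PEO1 A and at 2.84, 4.59 and 3.83 in PEO4 A, a log2 fold change of -2.40 ± 0.17 (edgeR adjusted p = 1.2e-07). In the second table it was lower by -0.87 ± 0.23 untreated (edgeR adjusted p = 0.0017), -0.42 ± 0.19 at 2 hours (adjusted p = 0.049) and -1.40 ± 0.22 at 6 hours (adjusted p = 5.6e-06). The 2-hour groups of MT1A overlapped, and the difference did not pass without PEO1 B PDS 2hr replicate 1 (-0.30) or 3 (-0.48) or PEO4 B PDS 2hr replicate 1 (-0.29) or 3 (-0.33). The untreated difference was called without PEO4 B replicate 2 (-1.05). Its mean level was 19.5 CPM in PEO1 A and 5.07 in untreated PEO1 B. The tables were normalized separately and the cells differ in genotype and medium, so their parts in that gap cannot be told apart.

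MT1F was lower in PEO4 A by -0.73 ± 0.16 (edgeR adjusted p = 0.0014), at 7.64, 9.08 and 10.99 CPM against 17.8, 13.7 and 14.0. In untreated B cells it overlapped between the lines at -0.12 ± 0.18 (adjusted p = 0.57), and after PDS the gap was -0.91 ± 0.16 at 2 hours and -2.09 ± 0.16 at 6 hours (adjusted p = 3.2e-05 and 7.1e-10). The 2-hour gap of MT1F was called without PEO4 B PDS 2hr replicate 2 (-1.09). MT1X had a like sequence of values. Untreated it was at -0.26 ± 0.17 in the first table and -0.29 ± 0.14 in the second (edgeR adjusted p = 0.19 and 0.079). The second value passed with DESeq2 (-0.29), a replicate block (-0.28) and only the groups compared (-0.28). After PDS MT1X was called lower in PEO4 B at -1.13 ± 0.12 and -1.73 ± 0.12 (adjusted p = 2.6e-07 and 1.2e-09).

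MT2A was the member with the smallest line difference at 6 hours. It was at 816, 777 and 800 CPM in PEO1 A and at 435, 763 and 713 in PEO4 A, where replicate 1 was low. Its log2 fold change was -0.33 ± 0.18 in the first table (edgeR adjusted p = 0.16) and -0.09 ± 0.11 in untreated B cells (adjusted p = 0.51). After PDS it was -0.43 ± 0.11 at 2 hours (adjusted p = 0.0021) and -0.22 ± 0.11 at 6 hours (adjusted p = 0.084). The 6-hour value passed with DESeq2 (-0.23) and with only the groups compared (-0.23). Without PEO4 A replicate 2 both MT2A (-0.47) and MT1X (-0.42) passed in the first table.

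**Figure D4:**
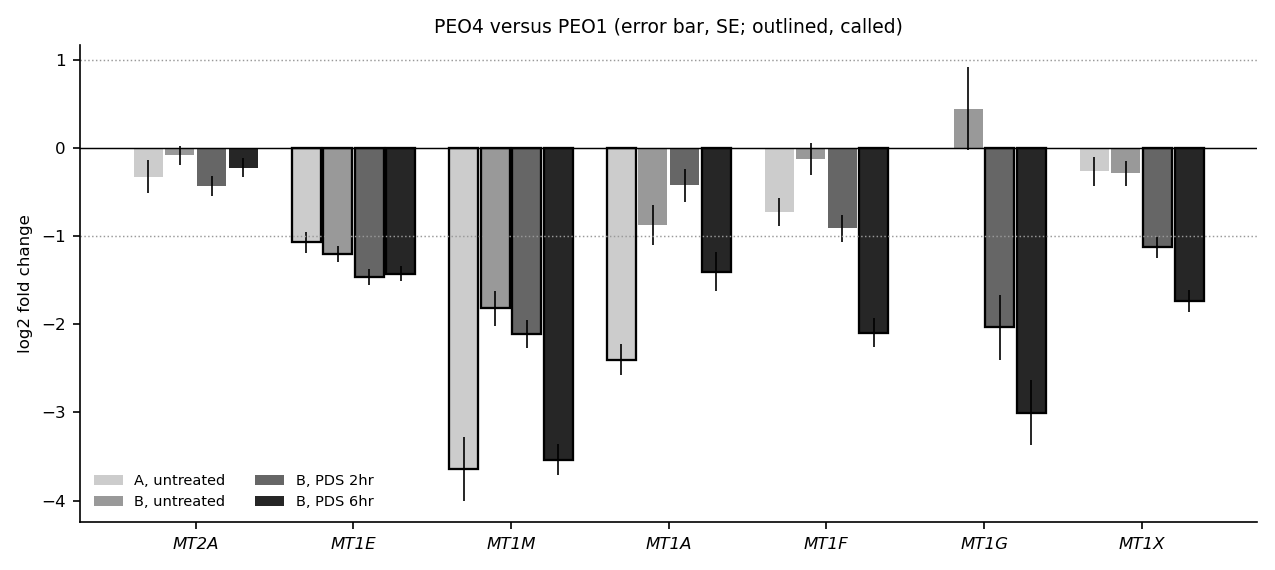
Log2 fold change between PEO4 and PEO1 for each tested metallothionein in the 4 settings (bars, edgeR estimate, light to dark from A untreated to B with PDS for 6 hours; error bars, SE; black outline, called; dotted lines, the fold limit of 1; MT1G was not tested in A). MT1M lies lowest at -3.64 in A and -3.53 in B at 6 hours, MT1E is outlined in all 4 settings, and MT1F, MT1G and MT1X are outlined in B at 6 hours but not untreated.

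MT1G and MT1H sat near the detection limit. MT1G had 0 counts in all 3 PEO1 A libraries and 8, 14 and 8 in PEO4 A, too few to enter the test. Set against a floor of 3 counts per library in PEO1 A (0.0664 CPM), the mean of PEO4 A was 3.84-fold higher, with its lowest library at 0.123 CPM. In untreated B cells the direction of MT1G was not settled at 0.44 ± 0.47 (edgeR adjusted p = 0.42). After PDS it was called lower in PEO4 B at -2.03 ± 0.37 and -3.00 ± 0.37 (adjusted p = 0.00014 and 3.0e-06). MT1H had 0 counts in all 6 libraries of the first table and 0 to 5 counts in each library of the second. At this depth no response of MT1H to PDS was detectable.

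Other metallothionein loci gave a partly different picture. Of 12 such loci, 4 were not among the listed genes, and MT1B, MT1IP, MT1HL1 and MT4 had 0 to 3 counts in each library. MT1L, a pseudogene whose transcript shares 50-base windows with MT1E, was at 26.9, 25.1 and 20.4 CPM in untreated PEO1 B and at 45.1, 52.8 and 31.4 in untreated PEO4 B. It rose in both lines after PDS, by 0.51 ± 0.18 and 0.68 ± 0.18 in PEO1 B (edgeR adjusted p = 0.027 and 0.0053). In PEO4 B it was called higher at 1.17 ± 0.17 and 1.12 ± 0.17 (adjusted p = 2.9e-05 and 3.7e-05). MT1L was higher in untreated PEO4 B than in PEO1 B at 0.84 ± 0.18 (adjusted p = 0.00093), whereas in the first table PEO4 A was lower at -1.27 ± 0.28 (adjusted p = 0.0066).

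The pseudogenes MT1JP and MT1DP were low. MT1JP went from 2, 6 and 4 counts in untreated PEO1 B to 22, 33 and 25 at 2 hours and 23, 26 and 21 at 6 hours, and was called higher at 2.10 ± 0.38 and 1.91 ± 0.39 (edgeR adjusted p = 5.5e-05 and 0.00019). MT1DP rose by 0.88 ± 0.36 and 1.32 ± 0.35 (adjusted p = 0.043 and 0.0024), from 11, 8 and 10 counts. Neither passed in PEO4 B. In the first table MT1JP had 8, 13 and 3 counts in PEO1 A and 0 in PEO4 A, at least 2.56-fold higher in PEO1 A against the same floor. MT3, known from brain, had 32, 12 and 28 counts in PEO1 A and 0, 4 and 0 in PEO4 A (-3.92 ± 0.87, adjusted p = 0.0018), and 0 to 6 counts in each library of the second table.

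Genes of zinc handling were read beside the metallothioneins. Of 25 zinc transporters and MTF1 in the list, 18 were tested. In PEO1 B, 1 was called higher and 1 lower at 2 hours, and 1 higher and 2 lower at 6 hours. Of all 17020 genes, 1.18% and 1.29% were called higher there, and 1087 and 1163 lower. In PEO4 B none was called at 2 hours and 1 was called lower at 6 hours. Of all genes, 6.40% and 6.26% were called higher in PEO4 B, and 1870 and 2782 lower. By adjusted p, 5 rose and 5 fell in PEO1 B at 2 hours, and 6 rose and 4 fell at 6 hours. Of all 17020 genes, 26.4% and 27.0% rose there, and 4458 and 4431 fell. In PEO4 B 3 rose and 4 fell at 2 hours, and 4 rose and 4 fell at 6 hours. Of all genes, 33.3% and 34.6% rose there, and 5447 and 5998 fell. The median log2 fold change of the list lay between -0.05 and 0.06 in the 4 comparisons, close to that of all genes.

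The gene called higher was SLC30A1, which encodes the zinc exporter of the plasma membrane and is a known target of MTF1. It was at 33.6, 33.4 and 41.2 CPM in untreated PEO1 B, 104, 105 and 98.1 at 2 hours and 83.9, 80.2 and 66.4 at 6 hours. The peak was thus at 2 hours, with log2 fold changes of 1.5 ± 0.11 and 1.09 ± 0.11 (edgeR adjusted p = 3.1e-09 and 1.5e-07) and a fall of 0.41 from 2 to 6 hours (adjusted p = 0.021). In PEO4 B SLC30A1 was at 63.4, 46.5 and 55.6 CPM untreated, 92.1, 102 and 85.5 at 2 hours and 65.5, 66.5 and 63.9 at 6 hours. It rose by 0.76 ± 0.11 at 2 hours (adjusted p = 4.9e-06), and at 6 hours the change was 0.24 ± 0.11 (adjusted p = 0.050). The line difference was -0.74 ± 0.15 and -0.85 ± 0.15 (adjusted p = 0.00076 and 0.00016), the same sign as for MT1X, MT1F and MT1G.

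The genes called lower in PEO1 B, SLC39A4 at both times and SLC39A10 at 6 hours, encode zinc importers. SLC39A10 was at 36.3, 32.4 and 33.5 CPM untreated, 24.5, 24.0 and 25.6 at 2 hours and 16.5, 16.4 and 17.8 at 6 hours. It fell by 0.46 and 1.01 on the log2 scale (SE 0.10 each, edgeR adjusted p = 0.00041 and 1.9e-08). In PEO4 B it rose by 0.66 ± 0.10 at 2 hours (adjusted p = 4.4e-06), and the line difference was 1.12 ± 0.14 and 1.18 ± 0.14 (adjusted p = 1.25e-06 and 5.2e-07). SLC39A4 fell in PEO1 B from 17.6, 16.2 and 19.1 CPM to 3.84, 3.54 and 3.49 at 2 hours and 2.495, 2.82 and 2.73 at 6 hours (log2 fold change -2.28 ± 0.18 and -2.72 ± 0.18, adjusted p = 3.5e-08 and 7.9e-09). In untreated PEO4 B it was at 258, 346 and 208 CPM, 15.3-fold above PEO1 B, and after PDS its changes there were -0.25 ± 0.12 and -0.11 ± 0.12 (adjusted p = 0.079 and 0.44).

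**Figure D5:**
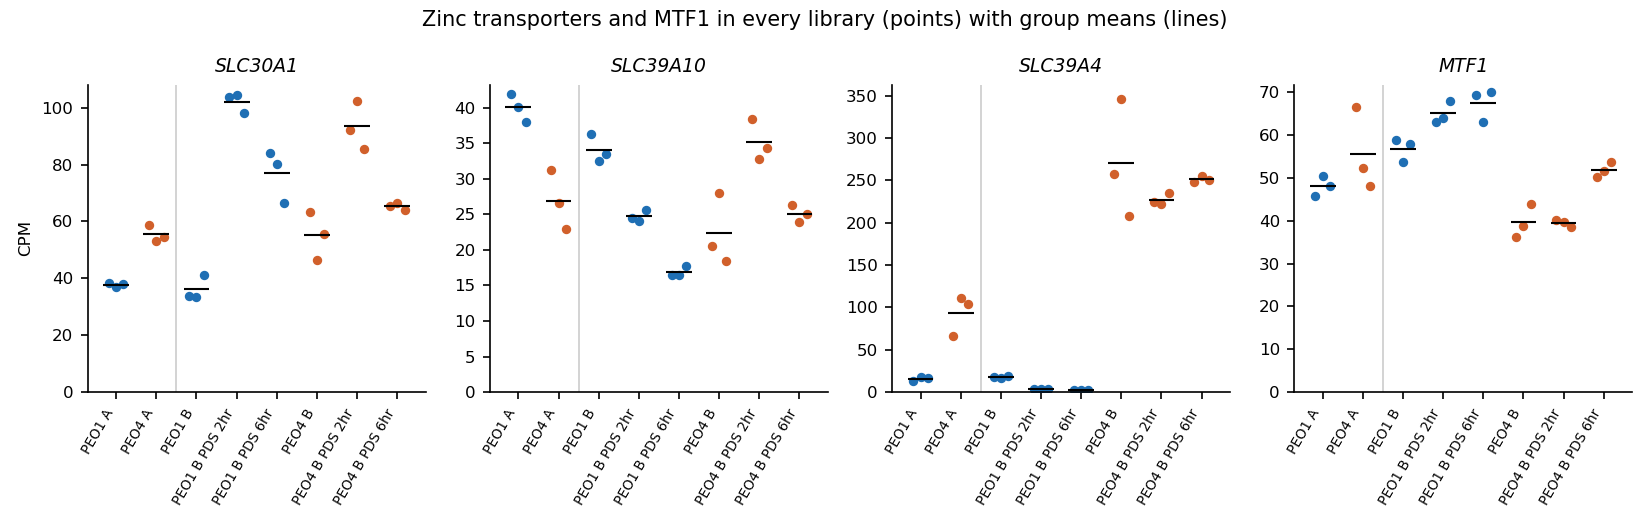
Level in CPM of the exporter gene SLC30A1, the importer genes SLC39A10 and SLC39A4, and MTF1 in every library of the 8 groups (blue, PEO1; orange, PEO4; points, libraries; lines, means of 3; linear axes from 0). SLC30A1 peaks at 2 hours in both lines, SLC39A10 steps down with time in PEO1 B, and SLC39A4 is above 200 CPM in all PEO4 B libraries. MTF1 has group means from 39.4 CPM (PEO4 B, PDS 2hr) to 67.5 CPM (PEO1 B, PDS 6hr).

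MTF1 itself changed by 0.20 ± 0.07 and 0.25 ± 0.07 in PEO1 B (edgeR adjusted p = 0.014 and 0.0022) and by -0.01 ± 0.07 and 0.39 ± 0.07 in PEO4 B (adjusted p = 0.93 and 1.3e-05). It was lower in untreated PEO4 B than in PEO1 B at -0.52 ± 0.07 (adjusted p = 2.2e-07). SLC39A8, another importer gene, was higher in untreated PEO4 B than in PEO1 B (1.25 ± 0.12) but lower in PEO4 A than in PEO1 A (-2.43 ± 0.12), and was called lower in PEO4 B at 6 hours at -1.29 ± 0.12. Between untreated lines, SLC39A11 was called higher in PEO4 B at 1.98 ± 0.08 and SLC39A14 lower at -1.63 ± 0.06.

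Lists for other known inducers of metallothioneins were described in the same way. Of 11 copper handling genes, 6 rose and 1 fell by adjusted p in PEO1 B at each time (all genes higher, 26.4% and 27.0%), with medians of 0.19 and 0.25. At 2 hours none was called, and at 6 hours the copper exporter gene ATP7B was called lower at -1.39 ± 0.14 (all genes, 1163 of 17020). Among those that rose at 2 hours were SOD1 (0.75 ± 0.07), COX17 (0.67 ± 0.09) and ATOX1 (0.54 ± 0.09), named after their values were seen. COX17, a copper chaperone gene with a short transcript, was called higher in PEO4 B at 2 hours at 1.06 ± 0.09. SCO2, which serves cytochrome oxidase, was lower in untreated PEO4 B at -1.46 ± 0.08. None of 11 NRF2 targets was called in PEO1 B at either time. By adjusted p 3 rose and 1 fell at 2 hours, and 3 rose and 3 fell at 6 hours. Of all 17020 genes, 26.4% and 27.0% rose at these times, and 4458 and 4431 fell. Called higher were 1.18% and 1.29% of all genes, and called lower 1087 and 1163. The number of NRF2 targets that rose was thus close to the share of all genes. OSGIN1 (0.82 ± 0.18 and 0.68 ± 0.18) and the thioredoxin reductase gene TXNRD1 (0.54 ± 0.11 and 0.69 ± 0.11), named after its values were seen, rose at both times. In PEO4 B, OSGIN1 was called higher at 2 hours (1.67 ± 0.15) and fell by 1.36 from 2 to 6 hours, and ME1 was called higher at 6 hours (1.12 ± 0.10).

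HMOX1, the heme oxygenase gene induced by oxidative stress and metals, went the other way from OSGIN1 and TXNRD1 at 6 hours in PEO1 B. It was at 15.5, 13.7 and 20.5 CPM untreated, 13.2, 14.4 and 15.8 at 2 hours and 8.65, 8.25 and 11.7 at 6 hours. Its log2 fold changes were -0.19 ± 0.15 and -0.80 ± 0.16 (edgeR adjusted p = 0.31 and 0.00028), the second a fall. Like MT1M, HMOX1 was much lower in PEO4 A than in PEO1 A, at -4.14 ± 0.23 (adjusted p = 1.3e-07). In the second table HMOX1 and MT1M differed in call. Between untreated B lines none of the 11 NRF2 targets, HMOX1 among them, was called, whereas MT1M was called lower. By adjusted p 3 of the 11 were higher and 5 lower in PEO4 B (all genes, 5787 of 17020 higher and 34.6% lower). A missed call does not show that HMOX1 was equal in the lines.

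Of 10 glucocorticoid-responsive genes 9 were tested. In PEO1 B at 2 hours 1 was called higher (all genes, 1.18%) and 2 lower (all genes, 1087 of 17020). CRISPLD2 was the first (1.07), and KLF9 (-1.45) and DUSP1 (-1.26) were the others. Both were again called lower at 6 hours (-1.23 and -1.19), as were 1163 of all 17020 genes. In PEO4 B, ERRFI1 (1.91) and SGK1 (1.70) were called higher and DUSP1 lower (-1.90) at 2 hours (all genes, 6.40% higher and 1870 of 17020 lower). At 6 hours SGK1 was called higher (1.96) and DUSP1 (-2.89), KLF9 (-1.27) and CRISPLD2 (-1.02) lower (all genes, 6.26% higher and 2782 of 17020 lower). PER1 (-1.39) and CRISPLD2 (-1.17) fell between 2 and 6 hours. Between untreated lines DUSP1 (1.60) and PER1 (1.40) were higher and SGK1 lower (-2.34) in PEO4 B. NR3C1, the gene of the glucocorticoid receptor, fell by 0.26 in PEO1 B at 2 hours (edgeR adjusted p = 0.0029) and rose by 0.37 in PEO4 B at 6 hours (adjusted p = 4.2e-05).

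Genes with a pattern like that of the most abundant members were sought over the 18 libraries of the second table. The measure was the root mean square difference of log2 CPM after centering each gene, over 10257 genes outside the family. For MT2A, whose own root mean square deviation was 0.34, the nearest were EIF2B2 (0.11), PRPF38A (0.12) and CXorf56 (0.13). For MT1E, with a deviation of 0.94, they were EIF3J (0.25), GPATCH4 (0.27) and MRPS18C (0.27). Within the family MT1X was nearest to MT1E at 0.31, whereas MT2A was at 0.67 from it. EIF3J, for example, averaged 172, 304 and 335 CPM in PEO1 B over time and 69.2, 144 and 182 in PEO4 B.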

How the data were processed

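Gene counts from 24 polyA RNA-seq libraries in 8 groups of 3 were used as deposited. Per the labels and the study's methods, the authors trimmed reads with fastp, checked them with FastQC, aligned them to hg38 with STAR and counted reads per gene with featureCounts. Versions, annotation and strand setting are not given in the sources used here. The A libraries used a directional polyA kit per the labels. The deposited values are whole-number counts, not normalized. Rows without readable counts (2 and 1) were left out.

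Each table was fitted alone with edgeR 4.0.16 in R 4.3.3: TMM scaling, filterByExpr (minimum count 10), and a robust quasi-likelihood test over all its libraries, with Benjamini-Hochberg adjustment over 15882 and 17020 genes. SE is the log2 fold change divided by the root of F. CPM uses TMM library sizes, and intervals cover the spread between libraries only. The residual degrees of freedom were 4 and 12. The fit was tested on simulated data. Alternatives were DESeq2 1.42.0, other scalings, no filter, adjusted p alone, leaving out libraries, a replicate block and only the groups compared.

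The 8 members, the gene lists and the naming rule (all members; other metallothionein loci with counts; MTF1, SLC30A1, HMOX1 and NR3C1; from each list the 2 called genes that changed most in each direction) were chosen with earlier results of these data known. Promoters came from RefSeq and transcripts from GENCODE, both on GRCh38, searched with Python 3.11.15 and Biopython 1.88. Lengths matched 16032 of 17020 tested genes.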

Additional observations from a re-analysis of the deposited data

Results flagged for a closer look

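The difference between PEO4 B and PEO1 B in the response to PDS passed edgeR's interaction test for 3 members at 2 hours and 4 at 6 hours. On the log2 scale, PEO4 B minus PEO1 B, MT1X was at -0.84, MT1F at -0.79 and MT1G at -2.48 after 2 hours. After 6 hours MT1M was at -1.72, MT1X at -1.45, MT1F at -1.97 and MT1G at -3.45. MT1G rests on 16 to 67 counts in untreated PEO4 B.

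MT1L was lower in PEO4 A than in PEO1 A at -1.27 and higher in untreated PEO4 B than in PEO1 B at 0.84. The difference between the tables was not tested.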

How the results depend on the processing

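Of 1157 values recomputed under other settings for 83 member values, 20 gave another call and 5 another sign, and 72 values kept call and sign throughout. In PEO4 B at 2 hours the number of members called (1) became 0 with DESeq2 size factors, library totals, upper-quartile scaling or DESeq2's Wald test and 2 with no filter on low counts, MT1E and MT1M lying at the fold limit. At 6 hours in PEO4 B library totals gave 2, MT1E called higher and MT1G called lower. With adjusted p alone the counts were 4 for PEO1 B from 2 to 6 hours and 4 for PEO4 B at 2 hours, all higher. In PEO4 B they were 4 at 6 hours (3 higher and 1 lower) and 5 between 2 and 6 hours (2 higher and 3 lower). Between lines at 2 hours the count was 7 and for the line difference at 2 hours 3, all lower. Leaving out 1 library moved the count from 0 to 2 in PEO4 B at 2 hours, 1 to 2 at 6 hours, 2 to 4 in PEO4 A against PEO1 A, 2 to 3 between untreated B lines, 4 to 5 in PEO1 B at 2 hours and 4 to 5 between lines at 2 hours, and it stayed at 5, 0, 1, 6, 1 and 4 in PEO1 B at 6 hours, PEO1 B from 2 to 6 hours, PEO4 B from 2 to 6 hours, between lines at 6 hours and the line differences at 2 and 6 hours. These counts take both directions together. The 2 in PEO4 B at 6 hours were MT1E called higher and MT1G called lower. In the first table MT1F, MT1X and MT2A stayed under the fold limit in every such run, and MT1H had 0 counts. The 4 there thus included MT1G, which had counts only in PEO4 A.

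Signs turned only in values that did not pass. MT1G in untreated B lines ran from -0.13 (without PEO4 B replicate 1) to 0.78 when 1 library was left out, MT2A there from -0.20 to 0.075 (without PEO4 B replicate 3), and MT1G in PEO4 B from 2 to 6 hours from -0.54 to 0.10 (without PEO4 B PDS 2hr replicate 2). MT1X from 2 to 6 hours in PEO4 B became -0.0114 with library totals and -0.0313 with upper-quartile scaling. Relative to the median of short transcripts, an alternative chosen after seeing the data, MT1A in PEO1 B at 6 hours became 0.13. Relative to short protein-coding transcripts, MT1A in PEO1 B at 2 hours became -0.23, and in PEO4 B MT1F (-0.30) and MT2A (-0.28) at 2 hours and MT1M (-0.12) at 6 hours turned. Apart from construction, the cause was not tested.

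Replicate numbers did not pair the libraries: correlations of deviations ran from -0.185 to 0.16 in 45 same-numbered pairs of the second table and from -0.0433 to 0.0296 in 3 of the first, and 14 of 45 and 1 of 3 correlated best with their own number. With a replicate block the members called stayed at 3 in PEO4 A against PEO1 A, 2 between untreated B lines and 5 in PEO1 B at 6 hours, with all-gene counts close to those without it (219 against 220 called higher in PEO1 B at 6 hours). The block brought 4 values under an adjusted p of 0.05 that had missed it: MT1X between untreated B lines (-0.28), MT2A in PEO4 B at 2 hours (0.24), and MT1F (-0.34) and MT1G (-0.89) in PEO4 B at 6 hours. Low counts limit MT1G and MT1H most.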
